A study of Sus scrofa with 30 samples.

Results

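Plasma drawn 6 h after total body irradiation (TBI), the 0d time point, was compared with plasma drawn from the same animals before TBI. The comparison takes 9 of the 30 libraries of the series, which are 3 at 0d and 6 pre-TBI, and all 411 ssc-miRNAs (pig miRNAs in the miRBase nomenclature) of the deposited count table. The animals were 3 male Göttingen minipigs, about 4 months old, here called minipigs 1, 2 and 3. Each minipig gave 1 library at C7 (7 days before TBI), 1 at C1 (1 day before TBI) and 1 at 0d. All 3 received 2.2 Gy of 60Co gamma radiation, and the same dose label also stands on their pre-TBI libraries. They were anaesthetised for irradiation and for blood draws and belonged to the control arm of a countermeasure study, and none survived to the end of the observation period. No sham-irradiated animal was part of the series, so irradiation, anaesthesia, handling and the passage of time cannot be told apart at 0d.

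MicroRNAs are short RNAs, cut from the arms (5p and 3p) of a hairpin precursor, that pair with messenger RNAs and lower their translation or stability. Some leave the cell in vesicles or bound to proteins and remain measurable in plasma. Several are made largely by particular cells, such as miR-122 by hepatocytes, miR-1 and miR-133 by muscle and miR-451 by red blood cells, and plasma levels of these are used as markers of those cells. In plasma, a lower level from fewer cells of a type and one from less RNA released per cell cannot be told apart.

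Library totals ran from 24341 to 524084 counts. The 0d library was the deepest of its animal in all 3 minipigs, so depth and the 0d draw cannot be told apart either. The smallest library was that of minipig 1 at C7. Its levels rest on few counts in several rows described below. It held 9 counts of ssc-miR-7, 5 of ssc-miR-708-5p, 4 of ssc-miR-9806-5p and 6 of ssc-miR-1. Levels below are CPM, counts relative to the library total after scaling by trimmed mean of M values (TMM), and are given for C7, C1 and 0d in that order. Fold changes are on the log2 scale, 0d over the pooled C7 and C1, from edgeR's quasi-likelihood test with the animal as a block, with their standard errors (SE). A difference is called higher or lower at an unadjusted p under 0.05, the cut-off that the study used, with no adjustment for the 411 tests unless stated.

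At 0d, 30 ssc-miRNAs were higher and 16 were lower than before TBI at the unadjusted cut-off, which is 11.2% of the 411 tested (7.3% higher and 3.89% lower). None passed an adjusted p under 0.05 in edgeR, where the smallest Benjamini-Hochberg value was 0.344, so each difference below is a nominal one. Over the 46 rows edgeR's adjusted p ran from 0.344 to 0.360. DESeq2 gave 2 ssc-miRNAs at that adjusted level, ssc-miR-122 and ssc-miR-9794-3p. Log2 fold changes of the called rows ran from 0.57 to 1.04 among the higher and from -1.85 to -0.56 among the lower. The higher rows were the more abundant, with a median of 709 counts per library against 175 over all rows and 139 among the lower.

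The split between higher and lower depended on how libraries were scaled. With TMM the median log2 fold change of all rows was -0.05, and with library size alone it was -0.36, which gave 7 higher and 59 lower. DESeq2's size factors gave 25 higher and 26 lower, and leaving out the most abundant row, ssc-miR-4332, gave 16 higher and 33 lower. All 46 rows kept their direction under the 12 scaling alternatives, and 23 of them, 7 higher and 16 lower, also stayed under the cut-off in each. The 12 include TMM with C1 of minipig 2 as reference library, which is edgeR's own choice and repeats the reported fit. Every other TMM reference library gave more lower than higher rows, with 13 to 26 higher and 28 to 37 lower. The larger number of higher rows in the reported fit thus depends on that reference. Thinning every library to the smallest total gave 14 higher and 49 lower. The count and the split also depended on single animals. Without minipig 3, 1 row was higher and 5 were lower, although all 46 kept their direction. Without minipig 2 there were 5 higher and 44 lower, and without minipig 1 there were 25 and 21.

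**Figure D1:**
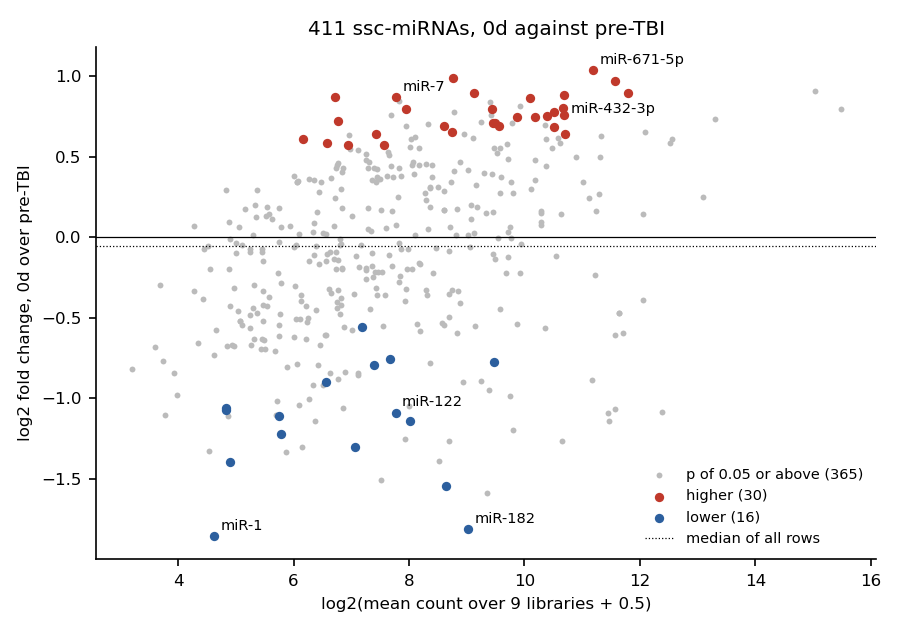
Log2 fold change of 0d over pre-TBI (y axis) against the log2 of the mean count over 9 libraries plus 0.5 (x axis) for 411 ssc-miRNAs, with 30 higher rows in red, 16 lower rows in blue and the other 365 in grey. The dotted line is the median of all rows, -0.05, and the higher rows lie towards the abundant side.

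Of the 411 rows, 89 (21.7%) stood at 0d above both pre-TBI libraries of the same minipig in all 3 animals, and 20 (4.87%) stood below both. With library size alone these were 36 (8.76%) and 70 (17.0%). Of the called rows, 29 of the 30 higher and 7 of the 16 lower were separated in this way on the TMM scale. The call and the separation rest on the same libraries and the same scaling, so this follows in part from the call. The within-animal differences of the 3 minipigs had Pearson correlations of 0.557, 0.463 and 0.411 over the 411 rows, which share library depth and scaling and are not independent of each other.

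The 10 higher rows are described first, those with the smallest p among the separated ones, all of which were above both earlier draws in every minipig after TMM. By share of counts, which is library size alone, this held for 9 of the 10 and not for ssc-miR-139-5p. After TMM, 9 of the 10 had every 0d value above all 6 pre-TBI values of all animals. By share of counts 3 had, ssc-miR-671-5p, ssc-miR-9805-3p and ssc-miR-339-3p. The 10 rows were picked for a small p and for separation within animals, so this lack of overlap follows in part from that choice. The share of all rows with no overlap between animals was not counted, so there is no background to set it against. ssc-miR-7, a miRNA of neurons and endocrine cells, had CPM of 430, 528 and 832 in minipig 1, of 625, 498 and 864 in minipig 2 and of 502, 502 and 1150 in minipig 3. On this TMM scale every 0d value exceeded all 6 pre-TBI values. Its log2 fold change was 0.87 (SE 0.23).

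ssc-miR-9794-3p behaved alike in level, with 478, 560 and 838 in minipig 1, 537, 599 and 941 in minipig 2 and 592, 676 and 1250 in minipig 3. Its log2 fold change was 0.80 (SE 0.22). Again no 0d library overlapped any pre-TBI library after TMM.

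ssc-miR-671-5p, which is known to cut the circular RNA CDR1as that binds miR-7, had the highest log2 fold change of all called rows, 1.04 (SE 0.30). Its CPM were 4880, 8140 and 14300 in minipig 1, 8000, 4640 and 10100 in minipig 2 and 3800, 4990 and 10700 in minipig 3. The 0d values lay above every pre-TBI value, although C7 and C1 of minipigs 1 and 2 differed widely.

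ssc-miR-708-5p had CPM of 239, 309 and 355 in minipig 1, of 306, 249 and 517 in minipig 2 and of 201, 217 and 504 in minipig 3. The step was small in minipig 1 and larger in the other minipigs. The log2 fold change was 0.87 (SE 0.24).

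ssc-miR-9805-3p reached 2090, 1720 and 2090 at 0d in minipigs 1, 2 and 3, from pre-TBI values between 574 and 1420, and had a log2 fold change of 0.99 (SE 0.28). ssc-miR-339-3p reached 5670, 4000 and 5420 from values between 2050 and 3420 (0.87, SE 0.26). In both, the 0d values of all 3 minipigs exceeded every pre-TBI value.

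ssc-miR-432-3p, from the imprinted DLK1-DIO3 locus, reached 9140, 6590 and 6840 from values between 3010 and 5700 (0.89, SE 0.28). ssc-miR-139-5p reached 1900, 1500 and 1830 from values between 919 and 1240 (0.65, SE 0.21). After TMM these too did not overlap with any earlier draw, pre-TBI libraries of other animals included, but by share of counts both did. ssc-miR-139-5p took 0.171% of counts at C7 of minipig 3, against 0.147%, 0.148% and 0.160% at 0d in minipigs 1, 2 and 3.

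ssc-miR-9806-5p reached 490, 410 and 500 from values between 191 and 390 (0.72, SE 0.24), and ssc-miR-664-3p reached 1030, 534 and 779 from values between 391 and 715 (0.64, SE 0.22). In ssc-miR-664-3p, minipig 2 at 0d lay below both pre-TBI values of minipig 1, so the groups overlap between animals but not within them. The direction of ssc-miR-9806-5p turned to -0.11 when every library was thinned to the smallest total. Both arms of miR-139 were called, since ssc-miR-139-3p had a log2 fold change of 0.97 (SE 0.33). Of the other higher rows, ssc-miR-339, ssc-miR-339-5p and ssc-miR-4334-3p had means of 715, 751 and 703 counts. The counts of ssc-miR-339 and ssc-miR-4334-3p differed by less than counting noise, so they may be the same reads. Each of these rows is still counted singly among the higher and the separated rows above.

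**Figure D2:**
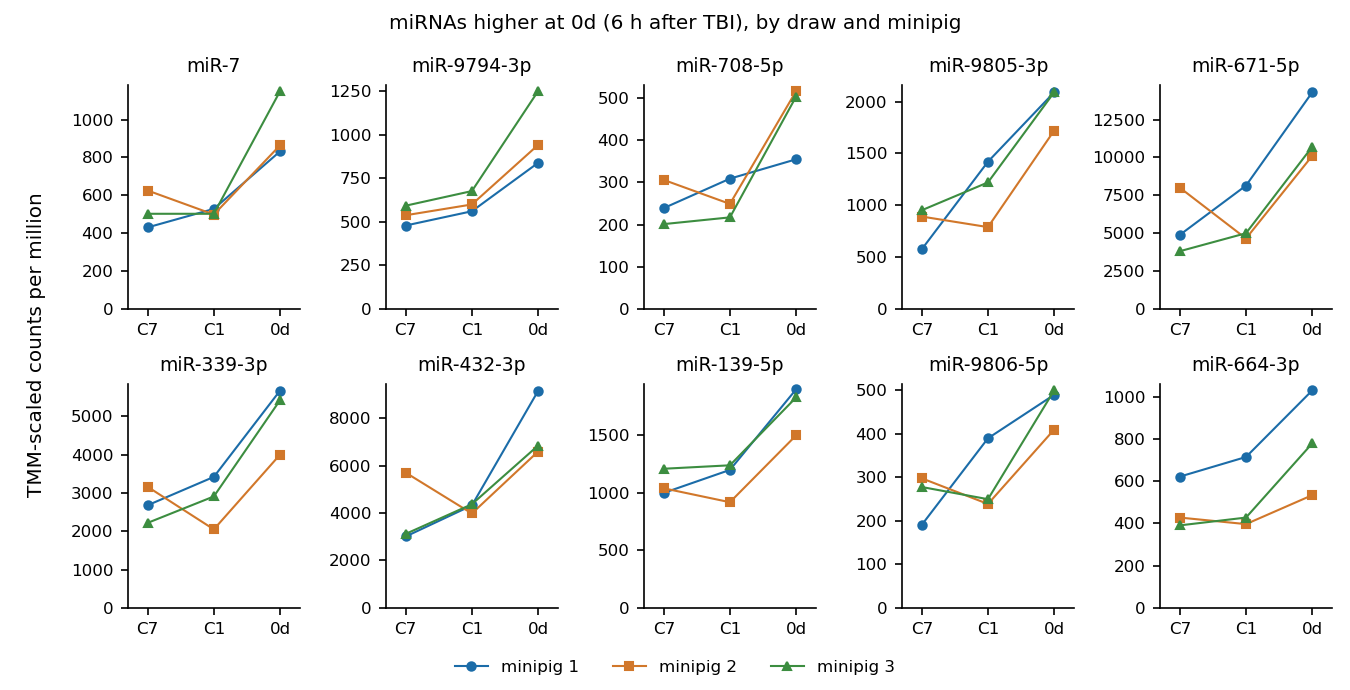
TMM-scaled CPM (y axis, from 0) of 10 ssc-miRNAs at C7, C1 and 0d (x axis), with 1 line and 1 marker shape per minipig and each point 1 library. In every panel the 0d point of a minipig is above its C7 and C1 points, as for miR-7 with 832, 864 and 1150 at 0d.

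Among the lower rows, 7 met the same rule, so a lack of overlap among them also follows in part from the choice. ssc-miR-122, the main miRNA of hepatocytes, had CPM of 1100, 723 and 361 in minipig 1, of 927, 1280 and 497 in minipig 2 and of 591, 861 and 401 in minipig 3. All 3 values at 0d lay below all 6 pre-TBI values, after TMM and by share of counts. Its log2 fold change was -1.09 (SE 0.28), the smallest p of the table, and it stayed under the cut-off in all 34 alternatives, with values from -1.51 to -1.00.

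ssc-miR-1, a miRNA of skeletal muscle and heart, was rare, with CPM of 287, 65 and 6.12 in minipig 1, 67.1, 128 and 51.5 in minipig 2 and 128, 79.2 and 21.8 in minipig 3. The 0d values rest on 1, 24 and 10 counts. Each lay below the pre-TBI values of all animals, and the log2 fold change was -1.85 (SE 0.58).

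ssc-miR-182, of the miR-183, miR-96 and miR-182 cluster known from sensory organs, had CPM of 2680, 382 and 251 in minipig 1, of 1230, 2960 and 1010 in minipig 2 and of 2840, 1990 and 572 in minipig 3. Levels differed by more between animals and draws than those of miR-122, and the 0d value of minipig 2 lay above C1 of minipig 1. The log2 fold change was -1.81 (SE 0.60).

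ssc-miR-148a-3p, which is abundant in liver, was at 698, 2070 and 1480 at 0d in minipigs 1, 2 and 3, against 1670 and 1330, 3090 and 2290, and 3440 and 2090 before TBI (-0.77, SE 0.28). ssc-let-7f, of a family that acts in differentiation, was at 184, 407 and 369, against 430 and 260, 537 and 522, and 581 and 510 (-0.56, SE 0.24). Both were lower within each animal, while 0d values of 1 animal overlapped pre-TBI values of another.

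ssc-miR-135 stood at 288, 174 and 37.1 at 0d, with pre-TBI values from 79.2 to 1240 (-1.11, SE 0.41), and ssc-miR-9809-3p at 79.6, 204 and 48.0, with pre-TBI values from 104 to 526 (-1.22, SE 0.42). Low counts stand behind both in minipig 3, with 17 and 22 counts at 0d, and behind ssc-miR-9809-3p in minipig 1, with 13. The other 9 lower rows were not separated within every animal.

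**Figure D3:**
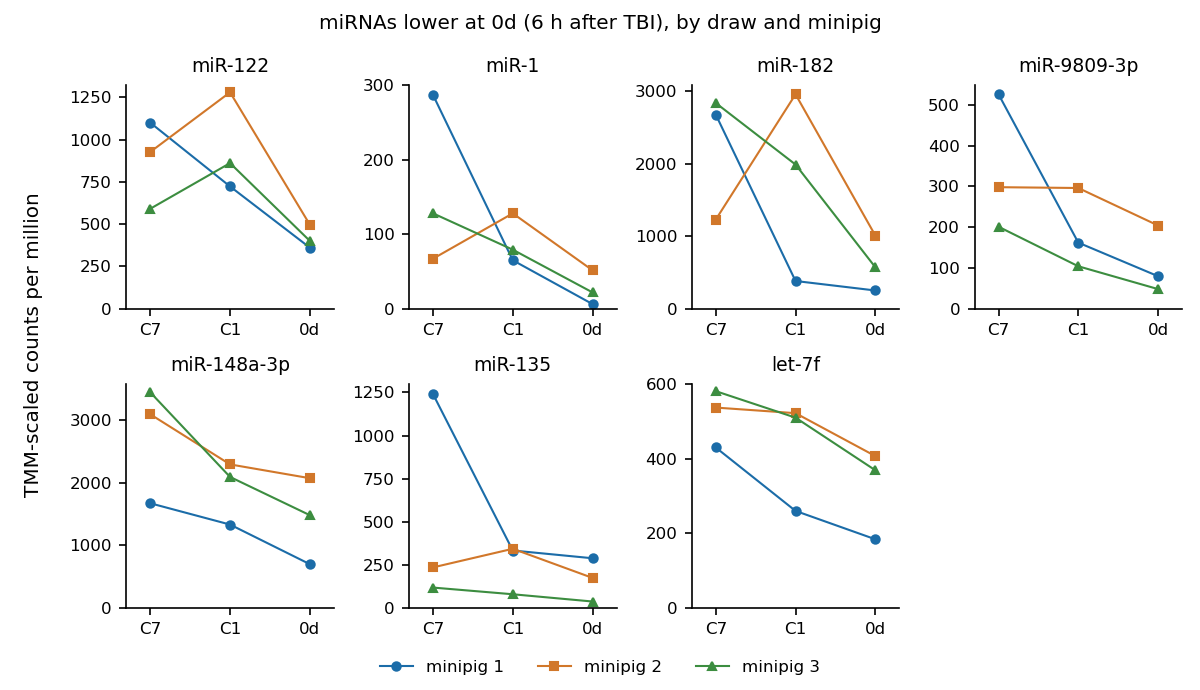
TMM-scaled CPM (y axis, from 0) of 7 ssc-miRNAs at C7, C1 and 0d (x axis), with 1 line and 1 marker shape per minipig and each point 1 library. The 0d point is the lowest of its minipig in every panel, as for miR-122 with 361, 497 and 401.

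The most abundant rows did not pass the cut-off. ssc-miR-4332 took from 8.95% to 19.0% of counts before TBI and 18.0%, 16.7% and 19.8% at 0d, with a log2 fold change of 0.79 (SE 0.46). ssc-miR-484 took from 2.48% to 15.9% before and 16.9%, 9.61% and 15.0% at 0d (0.91, SE 0.57). ssc-miR-9828-3p (0.73, SE 0.38), ssc-miR-92b-3p (0.59, SE 0.35), ssc-miR-874 (0.61, SE 0.44) and ssc-miR-486 (0.25, SE 0.65) also had positive values, and ssc-miR-9850-5p (-1.09, SE 0.51) and ssc-miR-186 (-0.59, SE 0.50) negative ones.

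Lists of miRNAs by cell of origin or family are given by their counts and medians, beside 11.2% called and a median of -0.05 over all rows. Among miRNAs of blood cells none of the measured members was called. The 3 red blood cell miRNAs had a median of 0.64, with ssc-miR-451 at 0.70 (SE 0.63), ssc-miR-144 at 0.64 and ssc-miR-486 at 0.25. Before TBI their summed CPM lay between 8735 and 85906, and at 0d between 12179 and 54896, so the groups overlapped, and the part of red cell lysis in other differences was not tested.

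The 9 platelet rows had a median of -0.07, with ssc-miR-191 at 0.14 (SE 0.29) and ssc-miR-425-5p at -0.57 (SE 0.39). The lymphocyte miRNAs ssc-miR-342 and ssc-miR-150 stood at 0.31 (SE 0.26) and 0.38 (SE 0.21). After TMM both were above their pre-TBI values in all 3 minipigs, as were 21.7% of all rows, but by share of counts 0d of minipig 3 was below both pre-TBI libraries, at 0.0908% after 0.124% and 0.119% for ssc-miR-342 and at 0.0553% after 0.0627% and 0.0600% for ssc-miR-150. ssc-miR-142-5p and ssc-miR-142-3p, of haematopoietic cells, stood at 0.16 (SE 0.30) and -0.52 (SE 0.29). miR-223, the main myeloid miRNA, is not a row of the table.

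Inflammation-induced miRNAs had the lowest median of the lists, -1.06 over 5 rows, and none was called. ssc-miR-146a-5p, which dampens NF-kB signalling, had CPM of 55300, 10700 and 13800 in minipig 1, of 12200, 28700 and 17100 in minipig 2 and of 2730, 2870 and 783 in minipig 3. The level varied widely before TBI, and 0d was the lowest draw in minipig 3 alone. The log2 fold change was -1.07 (SE 0.57), and ssc-miR-146b, of the same family, gave -1.14 (SE 0.59). At C7 of minipig 1 these rows had 1156 and 1153 counts, close to ssc-miR-186 and ssc-miR-124a of other families, with 1124 and 1173. At 0d of minipig 3 the counts were apart, at 359, 208, 1157 and 1157 in the same order. Over the 9 libraries these rows were not among the pairs that differed by less than counting noise. Whether they share part of their reads was not tested, nor was the cause of the low median. The other arm, ssc-miR-146a-3p, stood at -1.06 (SE 0.57). ssc-miR-155-5p and ssc-miR-155-3p, with means of 12.3 and 14.8 counts, stood at -0.29 (SE 0.50) and -0.84 (SE 0.45).

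Of 8 rows of muscle and heart, 1 was higher and 1 was lower, with a median of -0.51. ssc-miR-133a-3p, from a gene that lies within 20 kb of that of ssc-miR-1 in the RefSeq annotation, was the higher one at 0.57 (SE 0.22), against -1.85 for ssc-miR-1. ssc-miR-133b stood at 0.53 (SE 0.39) and ssc-miR-208b at -1.25 (SE 0.79). The remaining rows were negative and not called. ssc-miR-133a-5p, the other arm of miR-133a, stood at -0.45 (SE 0.32) and ssc-miR-206 at -0.58 (SE 0.48). ssc-miR-499-5p stood at -0.71 (SE 0.35) and ssc-miR-499-3p at -0.09 (SE 0.34). Among 6 liver and intestine rows, ssc-miR-122 was the called one and the median was -0.22, with ssc-miR-192 at -0.22 (SE 0.26) and ssc-miR-215 at -0.07 (SE 0.29).

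Of the miR-200 family of epithelia the table holds ssc-miR-429 alone, at 0.58 (SE 0.27). The 15 brain rows had a median of 0.17 and no call. Some of them have counts that are identical or differ by less than counting noise, and over the 11 distinct rows the median was 0.13. The most abundant of the list were ssc-miR-124a and ssc-miR-383, at -0.61 (SE 0.49) and 0.34 (SE 0.28). Of the p53-induced miR-34 and miR-449 family, ssc-miR-34c stood at 0.56 (SE 0.38) and ssc-miR-34a at -0.03 (SE 0.27). The 0d level of ssc-miR-34c was 679, 1600 and 1140, below both pre-TBI values in minipig 1, between them in minipig 2 and above both in minipig 3.

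In the families of the general miRNA repertoire, calls were single. The 13 rows of the miR-17-92 and related clusters had 1 higher, ssc-miR-92b-5p at 0.89 (SE 0.34), and a median of 0.07. The 9 let-7 and miR-98 rows had 1 lower, ssc-let-7f, and a median of -0.18, with ssc-let-7d-3p at 0.71 (SE 0.36) and ssc-let-7d-5p at 0.78 (SE 0.50). The 10 miR-30 rows had 1 lower, ssc-miR-30c-5p at -0.90 (SE 0.34), and a median of -0.43, with ssc-miR-30d at 0.27 (SE 0.25) and ssc-miR-30e-5p at 0.17 (SE 0.34).

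The 5 miR-15 and miR-16 rows had a median of -0.08, with ssc-miR-16 at 0.62 (SE 0.56) and ssc-miR-497 at -0.84 (SE 0.42), and none was called. The 8 rows of the miR-10, miR-99, miR-100 and miR-125 families had a median of -0.15 and no call, with ssc-miR-10b at -0.39 (SE 0.36) and ssc-miR-10a-5p at -0.11 (SE 0.24). Of 19 DLK1-DIO3 rows, ssc-miR-432-3p was higher and the median was -0.04, with ssc-miR-370 at 0.08 (SE 0.24). The counts of ssc-miR-376b and ssc-miR-376c differed by less than counting noise, and over the 18 distinct rows the median was -0.01. Of 9 mesenchymal and smooth muscle rows, ssc-miR-199a-5p was lower (-0.76, SE 0.28) and the median was -0.17, with ssc-miR-143-3p at -0.17 (SE 0.36) and ssc-miR-214 at -0.20 (SE 0.27).

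The study introduces 8 circulating miRNAs as responsive to radiation in other models, and 7 of these have rows, 12 in all. Of those rows 1 was lower, ssc-miR-30c-5p, none was higher and the median was -0.07. ssc-miR-27b-3p stood at 0.16 (SE 0.33) and ssc-miR-30a-5p at -0.35 (SE 0.27). The counts of ssc-miR-27b-3p and ssc-miR-27a differed by less than counting noise, so they may be the same reads.

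**Figure D4:**
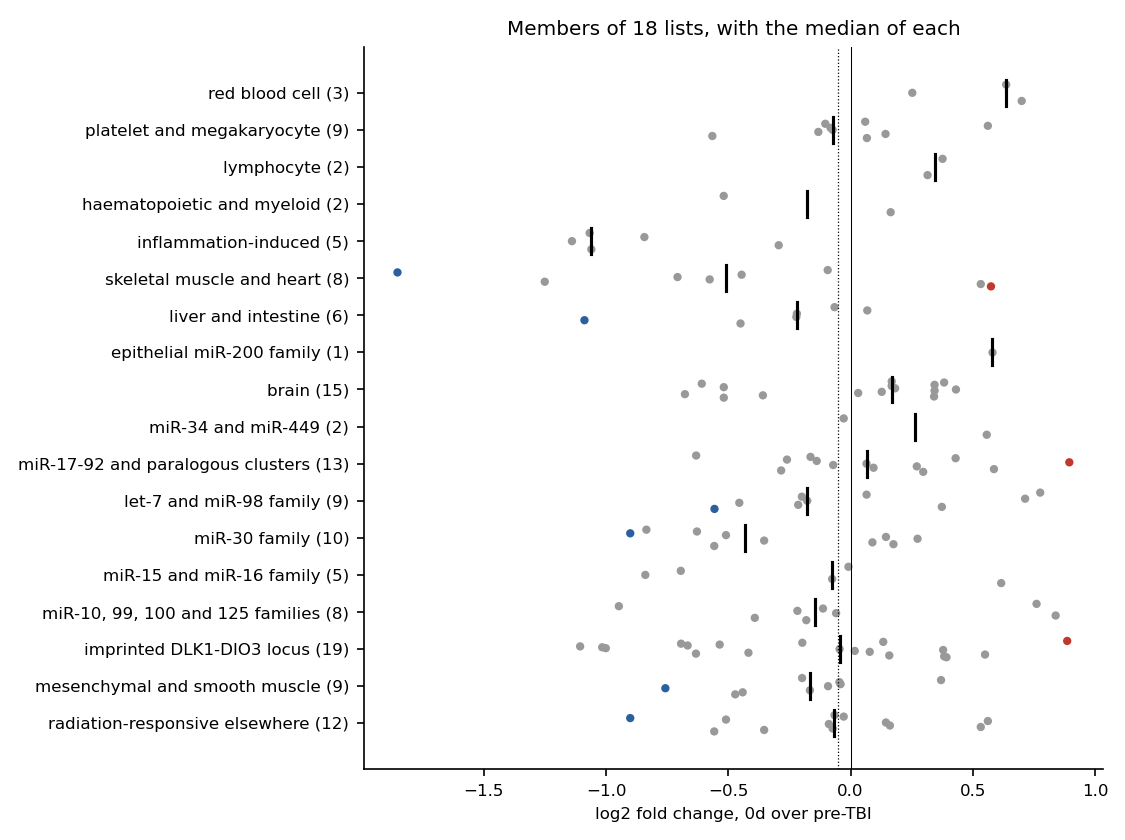
Log2 fold change of 0d over pre-TBI (x axis) of each member of 18 lists (y axis, number of rows in brackets), with higher rows in red, lower rows in blue, others in grey, the list median as a black bar and the median of all rows dotted. The inflammation-induced list has the lowest median, -1.06, with all 5 members grey.

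The ratio of the 5p to the 3p arm of a precursor within a library needs no scaling between libraries. This comparison was added after the data were seen. Of 78 precursors with both arms at a mean of at least 10 counts, 5 had a log2 ratio at 0d above both pre-TBI values in all 3 minipigs, and 9 had it below both. By a two-sided exact permutation test within animals, 6 reached the smallest p of 0.037 and none an adjusted p under 0.05.

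For miR-671 the log2 ratio went from 1.61 and 2.13 to 2.88 in minipig 1, from 2.83 and 2.50 to 3.15 in minipig 2 and from 2.20 and 2.20 to 2.96 in minipig 3. The mean shift was 0.75 (exact p = 0.037, adjusted 0.456). The 5p arm was the called one at 1.04, and the 3p arm stood at 0.31.

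For miR-432 the ratio moved towards 3p by a mean of -0.97 (exact p = 0.0741), with the 3p arm at 0.89 and the 5p arm at 0.02. For miR-199a it moved towards 3p by -0.75 (exact p = 0.037), with the 5p arm at -0.76 and the 3p arm at -0.09. For miR-708 it moved towards 5p by 1.60 (exact p = 0.0741), with the 5p arm at 0.87 and the 3p arm at -0.88. In minipig 1 that ratio was -3.80 at C7, -0.97 at C1 and -0.81 at 0d, so most of its difference there came from C7, the smallest library. Each precursor described here has 1 called arm, so unequal arms follow in part from that choice, and the cause was not tested. Of the 78 precursors, 14 had 1 called arm and 2 had both. The others at an exact p of 0.037 were miR-1296 (1.08), miR-7143 (0.50), miR-92b (0.32) and miR-7134 (-0.23).

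The baseline draws were also taken singly, in 1 fit with 3 groups. Against C1, 13 rows were higher (3.16%) and 6 lower (1.46%) at 0d, 4.62% of 411 in all. Against C7, 35 were higher (8.52%) and 22 lower (5.35%), 13.9% in all. Between C1 and C7, which are both before TBI, 1 was higher (0.243%) and 6 were lower (1.46%) at C1, 1.7% in all, and no row passed the adjusted cut-off in any of these in edgeR. The mean log2 difference between C1 and C7 was 0.17 for ssc-miR-122, which was higher at C7 in minipig 1 and at C1 in minipigs 2 and 3, and -0.04 for ssc-miR-7. When 0d was fitted with C1 alone, without the C7 libraries, 39 were higher and 63 lower, and with C7 alone 3 and 18.

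The next draw, 1d, was compared with 0d in a fit of 12 libraries. By the study's methods, the minipigs were given dextrose under the skin on the day of the 1d draw. Whether this came before or after the draw is not stated, and its part in differences at 1d was not tested. At 0d, 3 rows were higher (0.73%) and 12 lower (2.92%) than at 1d, 3.65% in all, and none passed the adjusted cut-off in edgeR, where the smallest value was 0.337. The comparisons of 0d and of 1d with pre-TBI share their baseline libraries. At 1d, 29 were higher (7.06%) and 74 lower (18.0%) than before TBI, 25.1% in all.

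ssc-miR-122 stood at -1.09 at 0d and -1.10 (SE 0.26) at 1d, and ssc-miR-708-5p at 0.87 and 1.25 (SE 0.23). ssc-miR-139-5p stood at 0.65 and 0.12 (SE 0.18), with a difference between 0d and 1d of 0.54 (SE 0.21). ssc-miR-192 and ssc-miR-215, of liver and intestine, were lower at 0d than at 1d, with log2 differences of -0.84 (SE 0.27) and -0.83 (SE 0.30). They were not called at 0d against pre-TBI and stood at 0.62 and 0.78 at 1d.

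The Shannon effective number of ssc-miRNAs, which falls as fewer rows take more of the counts, was lower at 0d than at either earlier draw in each minipig. It was 72.6, 57.7 and 56.5 in minipig 1 at C7, C1 and 0d, 83.1, 102 and 82.0 in minipig 2 and 124, 94.6 and 57.5 in minipig 3. The mean difference was -23.7 (two-sided exact permutation p = 0.0741, adjusted 0.222, smallest possible p 0.037). It was the lowest p of 6 library measures, and none passed the cut-off.

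The number of ssc-miRNAs detected after thinning to 24341 counts differed by -9.67 (exact p = 0.111), the share of the 10 most abundant rows by 7.71 percentage points (exact p = 0.111) and the share of ssc-miR-4332 by 5.35 points (exact p = 0.148). The log2 total differed by 1.05 (exact p = 0.185). The log2 ratio of miR-451 to miR-23a, used as a sign of red cell lysis, differed by 1.11 (exact p = 0.259), with 0d between or above the pre-TBI values of its minipig.

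**Figure D5:**
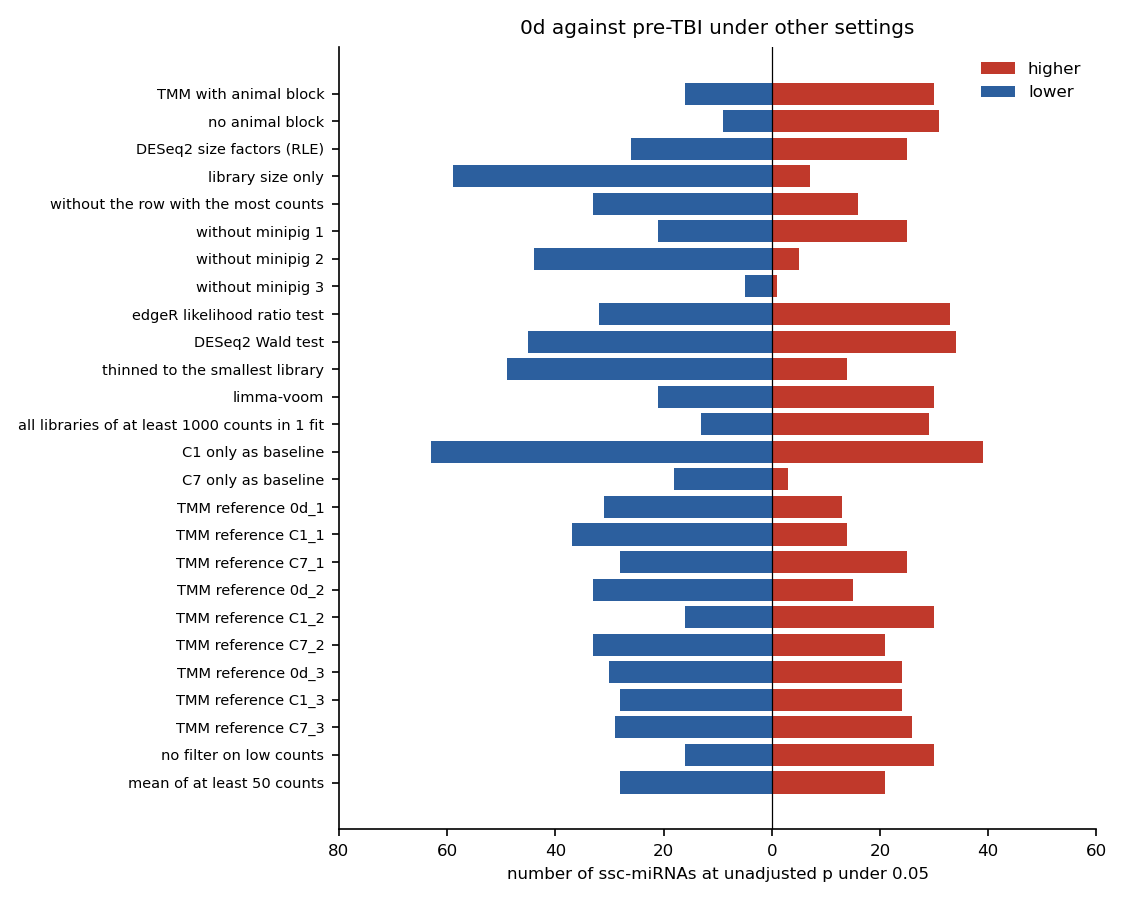
Number of ssc-miRNAs higher (red, to the right) and lower (blue, to the left) at 0d at an unadjusted p under 0.05 (x axis) under the reported fit at the top and 25 other settings (y axis). The reported fit has 30 and 16, library size alone 7 and 59, and the fit without minipig 3 has 1 and 5. The settings with C1 of minipig 2 as TMM reference and with no filter on low counts repeat the reported fit.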

How the data were processed

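Small RNA of plasma was sequenced by the authors (TruSeq small RNA libraries, NextSeq, bcl2fastq, Cutadapt, Bowtie2 2.2.3.0 to the pig genome ssc5, then miRBase ssc-miRNAs and miRDeep2), who deposited raw counts per ssc-miRNA and library without normalization. The study's methods describe a filter on low counts before TMM, but whether it was applied before the 411 rows were deposited is not given in the sources used here. Groups came from the sample labels. The members, lists and tests were chosen with earlier results of these data known.

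The 9 libraries were fitted with edgeR 4.0.16 (R 4.3.3), TMM, CPM above 0.5 in at least 3 libraries (all 411 rows passed), the quasi-likelihood test, the animal as a block, and Benjamini-Hochberg adjustment over all rows. Whether the study's own edgeR model had an animal term is not given in the sources used here. The SE was taken as the size of the fold change over root F, and edgeR can raise p for rows with less than Poisson spread, so p and SE need not match. Libraries of the same minipig are paired by design. Their deviations from group means correlated at 0.379 on average (9 pairs), against -0.278 between minipigs (27 pairs). Subtracting a group mean lowers correlations within that group by construction, so the gap between these values does not measure the pairing. No pair of libraries was a duplicate (smallest chi-square per degree of freedom 10.2). The p-values rest on 3 animals. Counts do not separate PCR copies, so depth limits precision by counting error at least.

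Named rows are up to 10 higher and 10 lower with the smallest p, at a mean of at least 10 counts, and separated within every minipig, with the 8 most abundant rows, and in each list the called members and the 2 most abundant. Lists get no test. Library measures and arm ratios (pseudocount 0.5) used exact permutation within animals (27 arrangements). The fit was also run on simulated counts without animal effects, so that run does not test the block or the choice of TMM reference. Alternatives were no block, RLE (DESeq2 1.42.0), library size, TMM references, other tests (limma 3.58.1), thinning, filters, baselines and left-out libraries. RefSeq (Sscrofa11.1) served for which miRNA genes lie within 20 kb, and no coordinates are given because the build differs from ssc5. Python 3.11.15, numpy 2.4.6, pandas 2.3.3, scipy 1.17.1 and matplotlib 3.10.9 were used.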

Additional observations from a re-analysis of the deposited data

Results flagged for a closer look

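Among 66 sets of 6 pre-TBI values, 3 held a library far from the others by Dixon's criterion for 6 samples, the gap to the next library over the range, and chance flags about 1 in 20. On the log2 CPM scale, the lowest ssc-let-7f value was 8.06 (C1 of minipig 1), the highest ssc-miR-191 value 14.18 (C7 of minipig 2) and the highest ssc-miR-133b value 10.11 (C7 of minipig 3). With that library left out, the log2 fold change at 0d was -0.60 for ssc-let-7f (-0.56 with it), 0.26 for ssc-miR-191 (0.14 with it) and 0.75 for ssc-miR-133b (0.53 with it), and ssc-miR-133b then passed the unadjusted cut-off.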

How the results depend on the processing

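Over 85 named or called ssc-miRNAs and 34 alternatives, 2252 of 2884 values kept their direction and their side of the cut-off, 494 kept the direction and lost the cut-off, 71 kept the direction and gained it, and 67 changed direction. The alternatives with C1 of minipig 2 as TMM reference, edgeR's own choice, and with no filter on low counts repeat the reported fit. Their values are kept by construction. Of the 46 called rows, 45 kept their direction in every alternative and 2 were called in every alternative that could be fitted, ssc-miR-122 and ssc-miR-1. Without the replicate block there were 31 higher and 9 lower, 35 of the 46 among them. The cause of the changes below was not tested.

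The count of 46 was 79 with DESeq2's Wald test (2 at an adjusted p under 0.05, from 0), 102 with C1 only and 21 with C7 only as the baseline. With a library or minipig left out it ran from 6 to 104, with 6 without minipig 3, 17 without 0d of minipig 1, 104 without C1 of minipig 1, 23 without C1 of minipig 2, 90 without C7 of minipig 2, 8 without 0d of minipig 3 and 25 without C7 of minipig 3. Without C7 of minipig 1, the smallest library, there were 46 higher and 18 lower. The edgeR likelihood ratio test gave 33 higher and 32 lower, limma-voom 30 and 21, and thinning 14 and 49. A mean of at least 50 counts gave 21 and 28, and all libraries of at least 1000 counts 29 and 13. TMM references other than edgeR's own choice gave from 13 to 26 higher and 28 to 37 lower.

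The 19 rows of 0d against C1 ran from 2 (without minipig 3) to 20 with a minipig left out. The 57 of 0d against C7 ran from 19 (without minipig 1 or 3) to 124 (without minipig 2), and were 88 with DESeq2, 2 of them adjusted. The 7 of C1 against C7 ran from 6 to 50 (without minipig 2), and were 13 with RLE, 12 without the most abundant row, 12 with the likelihood ratio test, 21 with DESeq2 and 20 thinned. The 15 of 0d against 1d ran from 8 (without minipig 1) to 16, and were 37 with library size only and 26 without the most abundant row.

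Among rows that changed direction, the called one was ssc-miR-9806-5p, at -0.11 thinned. With library size only, ssc-miR-486 was -0.091, ssc-miR-191 -0.15, ssc-miR-142-5p -0.16, ssc-miR-30d -0.024, ssc-miR-30e-5p -0.14, ssc-miR-370 -0.21 and ssc-miR-27b-3p -0.13. Thinned, ssc-miR-486 was -0.027, ssc-miR-191 -0.14, ssc-miR-215 0.19, ssc-miR-383 -0.00041, ssc-miR-370 -0.026 and ssc-miR-27b-3p -0.075. With C7 only, ssc-miR-486 was -0.56, ssc-miR-191 -0.092, ssc-miR-342 -0.0033, ssc-miR-142-5p -0.27, ssc-miR-30d -0.051 and ssc-miR-30e-5p -0.33. At a mean of at least 50 counts, ssc-miR-191 was -0.031, ssc-miR-142-5p -0.0054, ssc-miR-30e-5p -0.00079, ssc-miR-370 -0.092 and ssc-miR-27b-3p -0.0013. ssc-miR-370 was -0.12 with C1 only, -0.039 without the most abundant row and, by TMM reference, -0.047 (C1 of minipig 1), -0.042 (0d of minipig 2), -0.055 (C7 of minipig 2), -0.018 (C1 of minipig 3) and -0.033 (C7 of minipig 3). ssc-miR-143-3p was 0.015 without the replicate block.

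With a library or minipig left out, ssc-miR-486 ran from -0.76 to 0.72, ssc-miR-451 from -0.025 to 1.26, ssc-miR-191 from -0.068 to 0.28, ssc-miR-142-5p from -0.33 to 0.43, ssc-miR-215 from -0.39 to 0.11, ssc-miR-34c from -0.072 to 0.95, ssc-miR-34a from -0.32 to 0.095, ssc-miR-30e-5p from -0.27 to 0.41, ssc-miR-370 from -0.096 to 0.16, ssc-miR-143-3p from -0.89 to 0.19 and ssc-miR-27b-3p from -0.082 to 0.41. List medians that changed sign were those of the red blood cell (-0.29 without minipig 3), brain (-0.13 with library size only, -0.048 without minipig 3), miR-34 and miR-449 (-0.049 and -0.078 likewise) and miR-17-92 lists (-0.26 with library size only, -0.0044 with RLE, -0.0039 without minipig 2, -0.055 without minipig 3), and of the platelet (0.087 without minipig 1), radiation (0.064 without minipig 1), DLK1-DIO3 (0.036 without minipig 1) and miR-15 and miR-16 lists (0.041 without minipig 2). No library measure changed direction or its side of the cut-off when a minipig was left out, but with 2 minipigs the permutation test cannot reach 0.05. Depth limits rows such as ssc-miR-1, with a mean of 24.1 counts.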

Other observations

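ssc-miR-9850-5p, ssc-miR-186, ssc-miR-124a, ssc-miR-146a-5p and ssc-miR-146b were each highest in the smallest library, C7 of minipig 1, at CPM of 102000, 53700, 56100, 55300 and 55100, and each was lowest in minipig 3 at 0d, at 1750, 2520, 2520, 783 and 454. In minipig 2 all 5 were higher at C1 than at C7 and at 0d. These rows come from different miRNA families, except the miR-146 pair. At C7 of minipig 1, ssc-miR-186, ssc-miR-124a, ssc-miR-146a-5p and ssc-miR-146b also had close raw counts, 1124, 1173, 1156 and 1153. Over the 9 libraries they were not among the pairs that differed by less than counting noise. Whether they share part of their reads was not tested.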
